A study of Homo sapiens with 1 sample.

Results

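The miR-29 family comprises the mature products of 4 human hairpins, and all 7 of them (hsa-miR-29a-3p, hsa-miR-29a-5p, hsa-miR-29b-3p, hsa-miR-29b-1-5p, hsa-miR-29b-2-5p, hsa-miR-29c-3p and hsa-miR-29c-5p) were found by name among the 2549 human miRNAs of the array. The values come from 1 array. It held RNA of DLD-1, an established line from a human colorectal carcinoma, whose cells had received a negative control plasmid (labelled pLVX-NC). The matching cells with the circLONP2 overexpression plasmid were not analysed here, so no response to circLONP2 is described. Nothing in the labels says whether the transfected cells were a pool or a clone. There is no replicate, so errors come from repeated spots on the array and no p-value is given.

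A hairpin RNA is cut into a duplex of a 5p and a 3p arm, and usually 1 arm is loaded into Argonaute as the guide while the other is degraded. In the miR-29 family the 3p arm is the known guide, and it recognises targets mainly through its seed, bases 2 to 8 from the 5′ end. The 3p arms are known to repress mRNAs of collagens and other matrix proteins, of the de novo DNA methyltransferases DNMT3A and DNMT3B, and of the survival protein MCL1.

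The 3p arms are shown first, with the seed in capitals, because they differ at few bases and share 1 seed (mature sequences from RefSeq, GRCh38.p14).
hsa-miR-29a-3p: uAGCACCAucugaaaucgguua
hsa-miR-29b-3p: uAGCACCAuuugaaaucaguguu
hsa-miR-29c-3p: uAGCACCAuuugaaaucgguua

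Counted from the 5′ end, miR-29a-3p and miR-29c-3p have the same length and differ by the single substitution C10U, with the miR-29a base first. From miR-29c-3p to miR-29b-3p the first 17 bases are identical, and the substitutions over the 22 aligned bases are G18A, U21G and A22U. No other miRNA among the 2248 of the array with a RefSeq sequence has AGCACCA at bases 2 to 8. Cross-hybridization between such close sequences was not tested, and the sequences of the probes themselves were not used here.

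The 5p arms are shown with the seed in capitals because, unlike the 3p arms, each has a seed of its own.
hsa-miR-29a-5p: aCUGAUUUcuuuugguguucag
hsa-miR-29b-1-5p: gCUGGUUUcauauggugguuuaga
hsa-miR-29b-2-5p: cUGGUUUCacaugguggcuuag
hsa-miR-29c-5p: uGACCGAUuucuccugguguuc

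The 5p products of the miR-29b hairpins align over 22 bases with 2 differences, U11C and U19C, counted on miR-29b-1-5p. The annotated start of miR-29b-2-5p lies 1 base further in, which moves its seed by 1 base. None of the 4 seeds occurred at bases 2 to 8 of another of the 2248 array miRNAs with a RefSeq sequence, and the other 301 were not searched.

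The hairpins lie in 2 pairs, both on the minus strand of GRCh38.p14, and are shown with the mature arms in capitals to mark which bases each pair of names refers to. MIR29A (chr7:130876747-130876810) and MIR29B1 (chr7:130877459-130877539) are separated by 648 bases. They overlap no other annotated gene. The nearer edge of the long non-coding RNA gene LINC-PINT lies 22 bases beyond MIR29B1 in the coordinates, and its strand was not read here.
MIR29A: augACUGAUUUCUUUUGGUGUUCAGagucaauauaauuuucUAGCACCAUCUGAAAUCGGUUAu
MIR29B1: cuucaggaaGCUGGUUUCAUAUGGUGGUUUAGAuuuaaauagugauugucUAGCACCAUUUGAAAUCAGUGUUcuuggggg

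The second pair, MIR29C (chr1:207801852-207801939) and MIR29B2 (chr1:207802443-207802523), is separated by 503 bases. Both lie inside the long non-coding RNA gene MIR29B2CHG, their annotated host gene.
MIR29C: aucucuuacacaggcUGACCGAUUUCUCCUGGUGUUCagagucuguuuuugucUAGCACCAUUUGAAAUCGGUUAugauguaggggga
MIR29B2: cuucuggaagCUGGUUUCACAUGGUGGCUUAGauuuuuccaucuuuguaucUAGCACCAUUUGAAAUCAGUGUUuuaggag

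Both miR-29b hairpins give the same 3p product, so the signal of miR-29b-3p cannot be assigned to chromosome 7 or chromosome 1. Only miR-29a-3p and miR-29c-3p, and the 5p arms, mark a single locus.

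On the array every miRNA had 20 spots, spread over 2 probes for each 3p arm and for miR-29c-5p and over 4 probes for the other 5p arms. A spot's value is its brightness in scanner units after local background subtraction, and spots that the scanner software marked as outliers were left out, 4 of the 140 spots of the family. The software also gives each miRNA a Detected flag and a total signal, the sum over its probes, which is fixed at 0.1 when the miRNA is not detected. No spot of the array was saturated.

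All 3 of the 3p arms were detected, and 0 of the 4 arms on the 5p side were. On the whole array 56.8% of the human miRNAs were detected, so 3 of 7 is no more than the background share, but within the family detection followed the arm. Of the 57 spots kept for the 3p arms, all 57 were well above background by the software's criterion. Of the 79 spots kept for the 5p arms, 0 were.

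miR-29a-3p was the brightest member. The spots of its dimmer probe (A_25_P00012012) ran from 236.7 over a median of 245.8 to 254.9, and those of its brighter probe (A_25_P00012013) from 528.8 over 534.7 to 553.9. Their means were 245.6 ± 6.58 (SD, n = 10 spots) and 538.0 ± 8.79 (SD, n = 9 spots). The probes therefore did not overlap, and the spots of each lay close together, with a coefficient of variation of 2.68% and 1.63%.

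miR-29b-3p, the product of both loci, was dimmer. Its brighter probe (A_25_P00010053) had spots from 134.1 over a median of 143.4 to 144.4 and a mean of 140.98 ± 4.07 (SD, n = 9 spots). Its dimmer probe (A_25_P00010054) had spots from 58.7 over 67.4 to 71.9 and a mean of 66.1 ± 4.71 (SD, n = 10 spots). As for miR-29a-3p, the ranges of the probes were apart.

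miR-29c-3p was the dimmest of the detected arms. Its probes (A_25_P00012274 and A_25_P00012275) had means of 38.4 ± 2.30 (SD, n = 9 spots) and 37.8 ± 3.91 (SD, n = 10 spots). The spots ran from 35.2 to 42.7 and from 32.6 to 45.6, so here the probes overlapped.

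**Figure D1:**
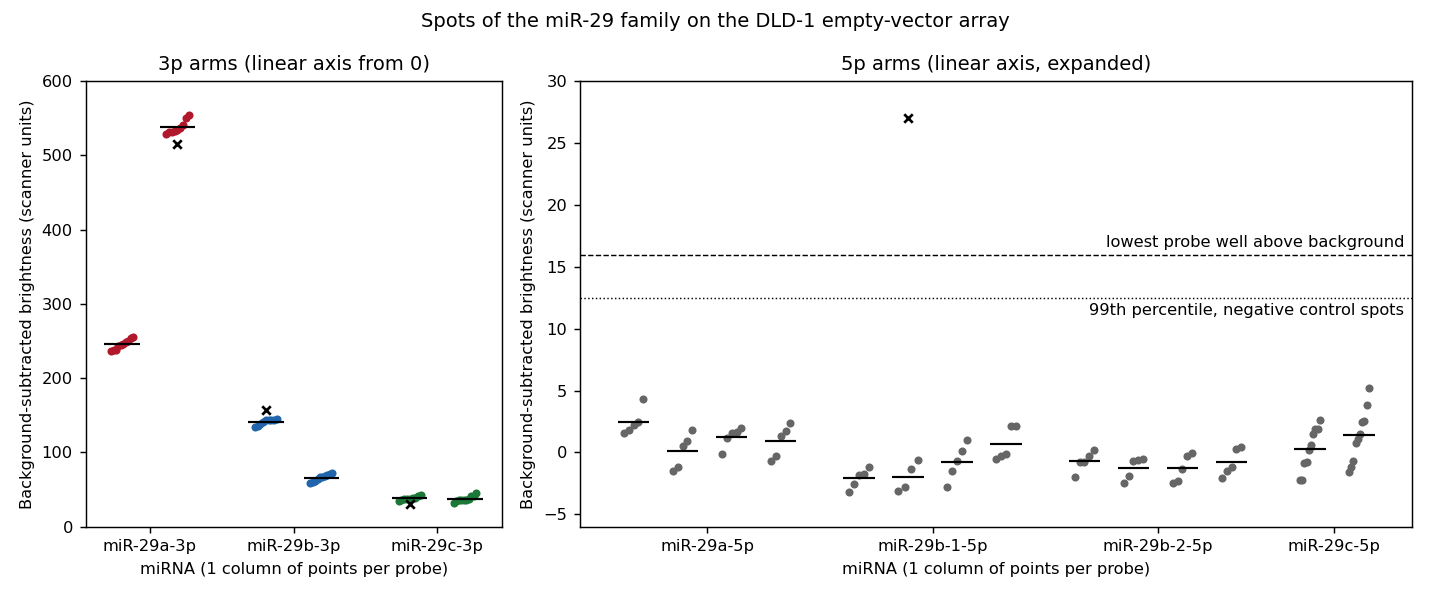
Each point is 1 spot, in background-subtracted brightness (linear axes, different ranges), with 1 column of points per probe. Horizontal bars are means over the spots kept, and crosses are spots marked as outliers. The 3p arms descend from miR-29a-3p, with probe means of 245.6 and 538.0, to miR-29c-3p at 37.8 and 38.4, and every kept 5p spot lies below both lines that mark background.

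The order by brightness was the same for every choice of probe. The dimmer miR-29a-3p probe was 1.74-fold brighter than the brighter miR-29b-3p probe, and the dimmer miR-29b-3p probe was 1.72-fold brighter than the brighter miR-29c-3p probe. Averaged over probes on the log2 scale, miR-29a-3p exceeded miR-29b-3p by 1.91 (SE 0.02 from the spots) and miR-29c-3p by 3.26 (SE 0.03). miR-29b-3p exceeded miR-29c-3p by 1.34 (SE 0.03). These are differences in brightness between different probes, whose binding can differ, and are no ratio of molecule numbers. That last difference was 0.69 after normexp background correction, whose offset of 50 narrows ratios, and 0.81 between the dimmest probes.

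The choice of probe moved the level itself more than the spots did. For miR-29a-3p the probes differed by 1.13 on the log2 scale (SE 0.01) and for miR-29b-3p by 1.10 (SE 0.04), a little over 2-fold. For miR-29c-3p the difference was 0.03 (SE 0.05), within the error of the spots. Among the 834 detected miRNAs with 2 probes and every kept spot well above background, the median difference was 0.23, and the middle of the distribution ran from 0.09 (25th percentile) to 0.53 (75th percentile). Thus 89.6% of these miRNAs had closer probes than miR-29a-3p, 89.0% had closer probes than miR-29b-3p, and 8.0% had closer probes than miR-29c-3p.

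**Figure D2:**
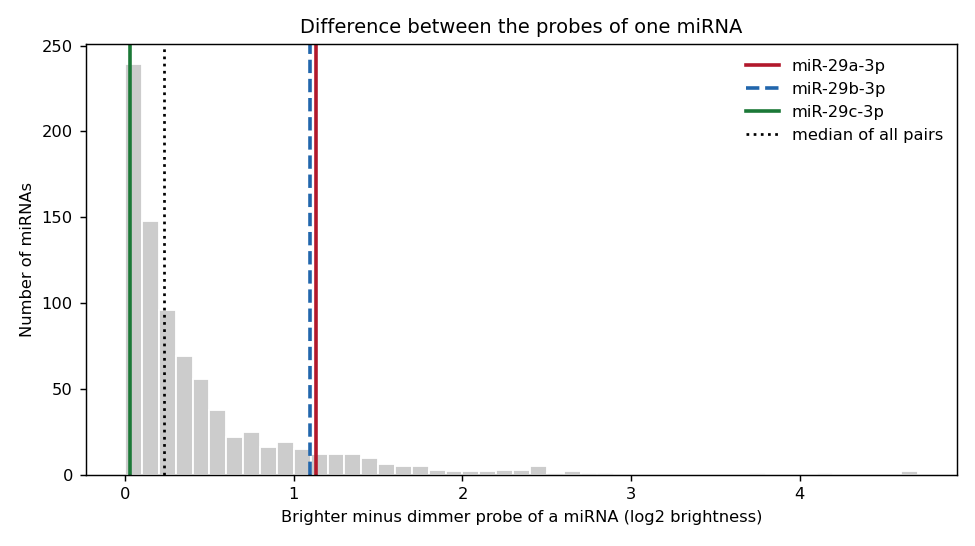
The x axis is the difference in mean log2 brightness between the probes of 1 miRNA, and the bars count the 834 detected miRNAs with 2 probes. Vertical lines mark the members and the median of 0.23. miR-29a-3p and miR-29b-3p lie together at 1.13 and 1.10, and miR-29c-3p lies at 0.03.

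The total signals had the same order, but they are sums over the same probes, so this is no separate result. They were 144.1 for miR-29a-3p (software error 10.9), 38.1 for miR-29b-3p (software error 3.03) and 14.0 for miR-29c-3p (software error 1.39). miR-29a-3p, the product of the chromosome 7 pair alone, thus held 73.3% of the family's total signal, miR-29b-3p 19.4% and miR-29c-3p, the product of the chromosome 1 pair alone, 7.13%. These are shares of probe signal and not of the output of the loci, since cross-hybridization between the 3p arms was not tested. The total of miR-29a-3p was 10.3 times that of miR-29c-3p (error 1.29 from the software errors), and 3.78 times that of miR-29b-3p (error 0.42).

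The detected members were spread over the range of the array. By total signal miR-29a-3p ranked 213 of the 1448 detected human miRNAs, miR-29b-3p ranked 549 and miR-29c-3p ranked 901. The total was lower in 85.3%, 62.1% and 37.8% of the detected miRNAs, respectively. The median of all detected miRNAs was 23.1, between miR-29b-3p and miR-29c-3p.

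**Figure D3:**
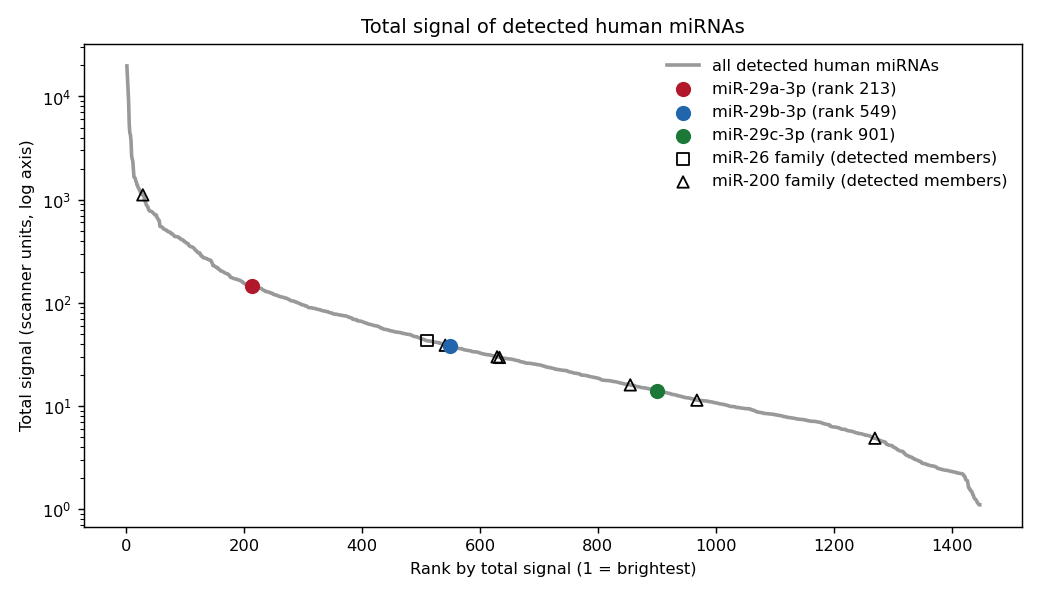
The grey line gives the total signal (log axis) of the 1448 detected human miRNAs in order of rank, filled circles mark the miR-29 members, and open symbols mark the detected members of the miR-26 and miR-200 families. miR-29a-3p lies at rank 213, miR-29b-3p at 549 and miR-29c-3p at 901.

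In the authors' deposited log2 values miR-29a-3p had 7.01, miR-29b-3p 4.86 and miR-29c-3p 3.45. Quantile normalization, which the methods describe, keeps the order within an array, so this order adds no separate result. The 5p arms all had 2.32, the lowest value of that table, which is 5.0 on the linear scale. miR-29a-3p exceeded miR-29b-3p by 2.14 and miR-29c-3p by 3.55 in these values, against 1.92 and 3.36 in log2 total signal. The set of arrays that was normalized together is not named in the sources used here.

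The distance from background was taken from the same probe means over a common level, so its order follows from that of the brightness. The 1000 negative control spots had a 99th percentile of 12.5, and 55.9% of the human miRNAs had a probe with a mean above it. In the family 3 of 7 did, the 3p arms. The dimmer miR-29a-3p probe was 19.6-fold above this level, the dimmer miR-29b-3p probe 5.29-fold and the dimmer miR-29c-3p probe 3.02-fold. The level was set mostly by 1 of the 7 negative control probes, and without it the level was 5.58 and the folds were 44.0, 11.8 and 6.76.

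The 5p arms could not be ranked. The mean brightness of their 14 probes ran from -2.10 to 2.48, and the highest kept spot, one of miR-29c-5p, was 5.21. The highest probe mean belonged to miR-29a-5p, at 2.48 ± 1.07 (SD, n = 5 spots). All 4 probes of miR-29b-2-5p had a mean below 0. By a looser criterion of the software, positive and significant against background, 3 of the 79 kept spots passed, 2 of miR-29c-5p and 1 of miR-29a-5p. Neither locus of miR-29b could therefore be told from its 5p arm: miR-29b-1-5p had probe means from -2.10 to 0.67 and miR-29b-2-5p from -1.29 to -0.72.

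Each miR-29 hairpin was thus detected through its 3p arm alone. This was the case for 144 of the 758 human hairpins with both arms on the array, or 19%, the 4 miR-29 hairpins among them. In 219 hairpins only the 5p arm was detected, in 235 both and in 160 neither. The MIR29B1 and MIR29B2 hairpins share their 3p signal and are not independent cases.

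The size of the arm difference could not be measured, since the 5p arms were not detected. Among human probes of which a share of 0.5 or more of the spots stood well above background, the lowest mean was 16.0, and each 5p arm lay below it. The dimmer 3p probe stood above that level 15.4-fold for MIR29A, 4.14-fold for MIR29B1 and MIR29B2, and 2.36-fold for MIR29C. These folds hold for the background-subtracted brightness. After normexp correction a different measure was taken, the mean 3p minus the mean 5p log2 brightness. It was 2.79 for MIR29A, 1.41 for MIR29B1, 1.42 for MIR29B2 and 0.69 for MIR29C. Normexp used an offset of 50, which narrows ratios, so these values do not measure the size of the arm difference either. In the 144 hairpins with only the 3p arm detected, the median 3p total was 16.7, above that of miR-29c-3p and below those of the other 3p arms.

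**Figure D4:**
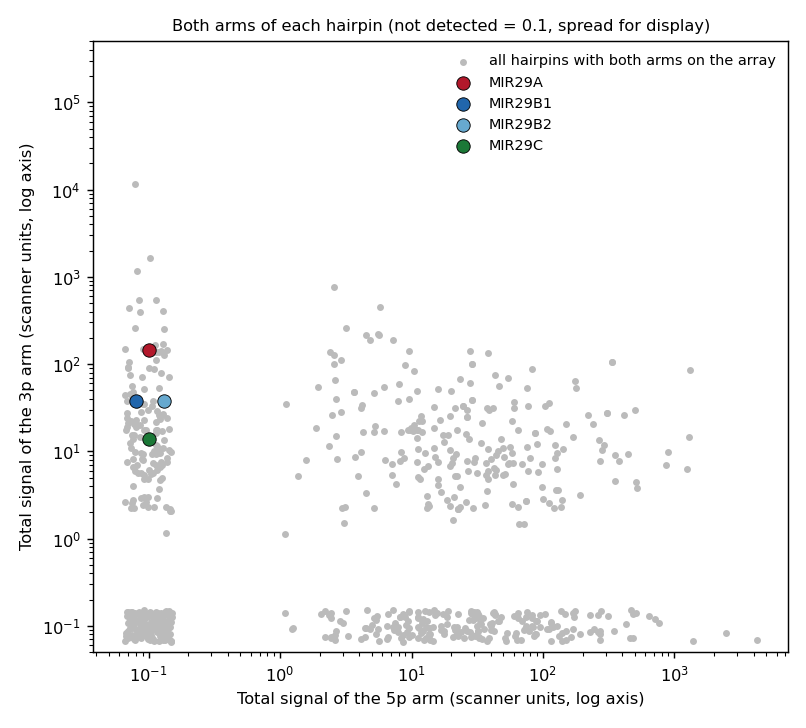
Each point is 1 human hairpin with the total signal of its 5p arm (x) and 3p arm (y), both log axes, and arms not detected at 0.1 with spread added so that points can be seen. The 4 miR-29 hairpins lie in the column with no detected 5p arm, at 3p totals of 144.1, 38.1 (MIR29B1 and MIR29B2, the same value) and 14.0.

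The family was set beside others that also come from several loci. In the miR-26 family, whose known guides are the 5p arms, 1 of 5 members was detected, miR-26a-5p, at a total of 42.8 and close to miR-29b-3p. In the miR-200 family, known for keeping the epithelial state, 7 of 9 members were detected with totals from 4.86 to 1112, the highest being miR-141-3p. There both arms of miR-200a and of miR-200b were detected, whereas no miR-29 hairpin had both. For miR-200c and miR-141 only the 3p arm was detected, as for each miR-29 hairpin. Over all human miRNAs on the array 56.8% were detected. With 1 array these differences between families could not be tested.

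The base composition of the members was set beside that of the whole array, with classes chosen after the values were seen. G and C made up 40.9% of miR-29a-3p, 34.8% of miR-29b-3p and 36.4% of miR-29c-3p. Of the 2248 human miRNAs with a RefSeq sequence, 17.2% were detected among those with up to 35% G and C (n = 209), 33.5% among those over 35 to 45% (n = 430), 60.9% among those over 45 to 60% (n = 984) and 80.0% above that (n = 625). All 3 of the 3p arms thus lay in the classes with few detected miRNAs. miR-29b-2-5p and miR-29c-5p, at 50% each, were not detected and lay in the class where 60.9% were. miR-29a-5p, at 36.4%, and miR-29b-1-5p, at 41.7%, were not detected either. They lay in the class with 33.5% detected, as did miR-29a-3p and miR-29c-3p.

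Within its own class of composition miR-29a-3p was brighter than 93.1% of the detected miRNAs, against 86.0% of all detected miRNAs with a RefSeq sequence. miR-29b-3p was above 88.9% of the 36 detected miRNAs of its class and miR-29c-3p above 44.4% of the 144 in its class. The part of base composition in these signals was not tested.

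**Figure D5:**
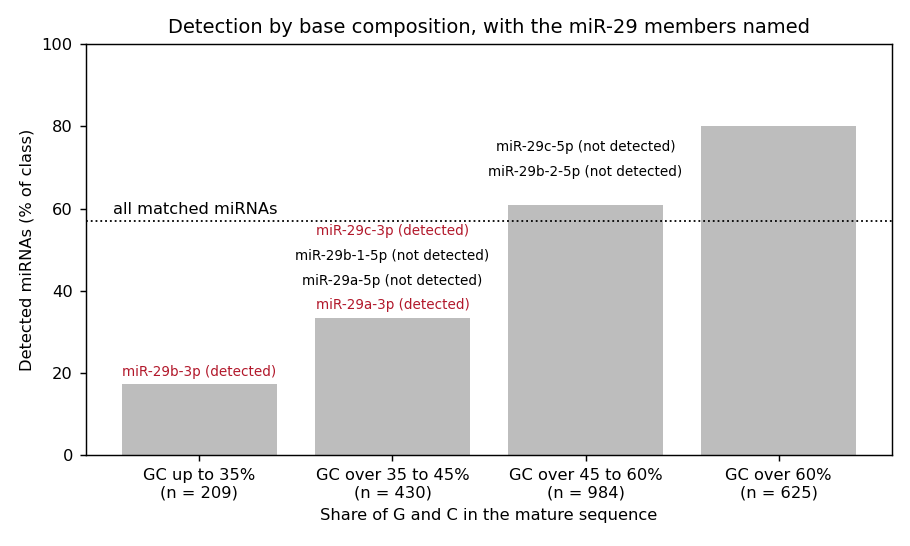
Bars give the percent of human miRNAs detected in each class of G and C content of the mature sequence (2248 miRNAs with a RefSeq sequence), and the dotted line gives the percent over all of them, 56.9%. Names of the miR-29 members stand above the bar of their class, and their height has no meaning. The 3p arms fall in the classes with 17.2% and 33.5% detected.

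The letters of the seed also occur outside the seed position. AGCACCA, read in the sense of the RNA, stands somewhere in 8 of the 2248 sequences (0.356%), the 3p arms and 5 others. Of these 5, miR-3663-3p (142.6), miR-4252 (26.8), miR-3065-3p (23.2) and miR-3935 (15.3) were detected with these total signals and miR-218-1-3p was not. Detection over all 2248 was 56.9%, and whether the letters go with detection was not tested. In miR-3065-3p and miR-3663-3p the letters stand at bases 3 to 9, 1 base off the seed of miR-29.
hsa-miR-3065-3p: ucAGCACCAggauauuguuggag
hsa-miR-3663-3p: ugAGCACCAcacaggccgggcgc

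These are printed, with the shared letters in capitals, to show that the match ends with the seed letters. A shared stretch is a description and says nothing of shared targets.

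miR-29b-3p alone in the family ends in AGUGUU (bases 18 to 23), letters known as a signal that directs this miRNA to the nucleus. They stand anywhere in 12 of the 2248 sequences, or 0.534%. Total RNA was hybridized, so the array does not separate nuclear from cytoplasmic miR-29b-3p.

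The labelled cell type was checked against marker miRNAs. Of 5 miRNAs typical of colon epithelium 3 were detected (miR-141-3p, miR-200c-3p and miR-215-5p, with totals from 16.9 to 1112), and miR-192-5p and miR-194-5p were not. Of 9 markers of liver, muscle, neurons, blood, stroma and endothelium 6 were detected, with totals from 3.02 to 28.4, the highest being miR-124-3p of neurons. miR-122-5p, miR-1-3p and miR-143-3p were not detected. Both counts lie near the 56.8% of all human miRNAs that were detected, so they say little about the cell type. The total of miR-29c-3p, 14.0, lies within the range of these 6, and those of miR-29a-3p and miR-29b-3p lie above it. What gives these markers their signal was not tested.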

How the data were processed

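miRNA was profiled in 1 sample, DLD-1 cells with the negative control plasmid, grouped from GEO's labels. The members and lists were chosen with earlier results of these data known. The deposited scanner file holds spot intensity on a linear scale, which the authors obtained with Agilent Feature Extraction 11.0.1.1, including local background subtraction, outlier marks, detection flags and total signals. The authors also deposited log2 values, described in the methods as quantile normalized. The labels describe ligation of Cy3 to the RNA, the methods labelled cDNA.

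Spots marked as outliers were removed. The remaining brightness values, with a lower limit of 1, were turned to log2, and a mean was taken for each probe and then for each miRNA over its probes. Standard errors derive from spots. Named miRNAs were the 7 members, others carrying the seed letters, and the miR-26 and miR-200 families. Alternatives covered detection, background, signal column, outliers, probe summary and level. They included normexp (limma 3.58.1, R 4.3.3, offset 50) on median spot signals. Python 3.11.15, numpy 2.4.6 and pandas 2.3.3 were used. Level estimation was tested on simulated data with a log2 spot SD of 0.2 and 1 true level for all probes of a miRNA. This did not cover differences between the probes of a miRNA, or arms near background. The number of arrays, 1, limits the precision, and no test between conditions was possible.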

Additional observations from a re-analysis of the deposited data

How the results depend on the processing

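The counts of members detected and of members above the negative controls were 3 of 7 under each of the 7 alternatives run. No difference between 3p arms changed sign. Shares, and differences between the probes of a member, could not change sign by construction. The 3p minus 5p differences kept their sign, but in several alternatives the 5p arm stood at a set value. Of the 64 alternative values, 7 were the counts above, which did not change. Among the others, 30 shifted by more than the combined spot SD of the levels compared, or for shares by more than the software error. Differences on the log2 scale between miR-29a-3p and miR-29b-3p (1.91) became 1.44 after normexp and 2.14 in deposited values. Between miR-29a-3p and miR-29c-3p (3.26) they became 2.12 after normexp, 3.55 in deposited values, 3.81 with the brightest and 2.71 with the dimmest probe. Between miR-29b-3p and miR-29c-3p (1.34) they became 0.69 after normexp, 1.88 with the brightest and 0.81 with the dimmest probe. The difference between the probes of miR-29a-3p (1.13) was 0.97 and of miR-29b-3p (1.10) 0.69 after normexp, whose offset of 50 narrows ratios. The use of the dimmest probe and of a set level for the 5p arms were added after the data were examined.

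The 3p minus 5p difference depends on the value given to an arm that was not detected, by construction. With brightness below 1 set to 1 it was 7.90 for MIR29A, 6.48 for MIR29B1, 6.59 for MIR29B2 and 4.67 for MIR29C. In the same order it was 2.79, 1.41, 1.42 and 0.69 after normexp, 10.49, 8.57, 8.57 and 7.13 in log2 total signal, 4.68, 2.54, 2.54 and 1.13 in deposited values, and 4.51, 2.59, 2.59 and 1.25 with the 5p arm at the lowest probe well above background. With the brightest probe MIR29B2 became 7.14. In deposited values the share of miR-29b-3p (19.4%) was 15.4% and that of miR-29c-3p (7.13%) was 5.81%. That of miR-29a-3p (73.3%) was 68.2%, a shift within the software error. In these shares each 5p arm, though not detected, counts as 5 on the linear scale, which lowers the shares of the 3p arms. Apart from these effects of construction, the cause was not tested. No paired analysis was possible because the control plasmid is represented by a single array.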

Other observations

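Of the 80 spots of the 5p arms, 1 was well above background, a spot of miR-29b-1-5p with a brightness of 27.0. The software marked it as an outlier, and the other 4 spots of the same probe (A_25_P00013253) ran from -3.14 to -0.59.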
